A study of Mus musculus with 816 samples.

Results

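Microglia are the resident macrophages of the brain, and interferon gamma (IFNg) is the type II interferon that T cells and NK cells release in inflamed tissue. The 6 cultures described here were primary mouse microglia labelled with IFNg alone for 72 h at 0.0001 µg/µl, among 816 samples of the series. They were compared with the 25 cultures labelled None at 72 h. All 31 cultures were neonatal microglia of a commercial source, were plated in 96-well plates and came from 1 lot of cells (Sciencell_May16). Members were found through the treatment and time labels, and no measured value was used to choose them. The series measured gene expression by 3′-end RNA sequencing in such cultures under many single and combined stimuli, and in microglia isolated from mice. Other groups used here were 9 cultures with IFNg for 24 h at the same dose, 40 untreated cultures at 24 h, 4 cultures with interferon beta (IFNb) for 72 h at 0.0001 µg/µl, and 7 cultures with interferon alpha (IFNa) for 72 h at 0.0008 µg/µl. Some values are also given for 8 cultures labelled TNFa + IFNg (4e-06 µg/µl) and 7 labelled LPS_lo + IFNg (1e-05 µg/µl) at 72 h, whose labels give 1 dose each and do not say for which agent. No source says that the wells came from separate animals, so every p-value measures the spread between wells.

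IFNg binds the receptor chains IFNGR1 and IFNGR2, which signal through the kinases JAK1 and JAK2. The GAS element (TTCNNNGAA) in promoters is bound at the end of this pathway, and the transcription factor IRF1, itself a target, acts with other IRFs on the ISRE element (GAAANNGAAA). Known targets in macrophages are the transactivator CIITA with the MHC class II genes, the GTPases that attack vacuoles around microbes, the immunoproteasome, and the chemokines that call in T cells through CXCR3.

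The 6 IFNg cultures lay on 2 culture plates. Cultures 1 to 3 were on the first plate, which also held 10 untreated wells, and cultures 4 to 6 were on the second plate, which held 5. The remaining 10 untreated wells were on 2 plates without IFNg. On the first plate, cultures 1 and 2 were in middle wells, as all untreated wells there were, and culture 3 was in a well at the right edge. On the second plate the IFNg wells were at the bottom edge and the untreated wells at the top edge. Depth was 2.83 to 6.28 M reads in cultures 1 to 3 and 1.29 to 2.48 M reads in cultures 4 to 6, with culture 5 the shallowest, against 1.45 to 14.4 M reads in untreated cultures. Genes above 5 CPM (reads of a gene scaled to one library total) numbered 8376 to 8601 in cultures 1 to 3 and 6830 to 7324 in cultures 4 to 6. The 10 macrophage and microglia markers summed to between 8086 and 15223 CPM in the IFNg cultures and between 7318 and 16693 CPM in the untreated ones, and the groups overlapped. Summed markers of NK cells were 0 CPM in every IFNg culture, and those of T cells reached 2.40 CPM. Monocyte markers reached 95.3 CPM with IFNg and 8.95 CPM without, and Vcan in culture 6 made up most of that maximum. Endothelial markers summed to 29.4 to 123 CPM and 21.2 to 75.6 CPM, and their part in the results was not tested. These are bulk cultures, in which fewer cells of a type and less RNA per cell cannot be told apart.

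After 72 h with IFNg, 302 genes rose and 724 fell. The rises were led by MHC class II chains and by interferon-induced GTPases, and the falls by the growth factor binding protein Igfbp4, by the TAM receptor ligand Gas6 and by the lipid carrier Apoe. A total of 11004 genes were tested with limma on log2(CPM + 1), and a call needed a Benjamini-Hochberg adjusted p under 0.05 and a difference of at least 1 on that scale. Called rises were thus 2.74% and called falls 6.58% of the genes tested. The difference over all genes tested had a median of -0.32, and 478 rises stood against 390 falls when each culture was centred on its own median. All 302 rises and 390 of the 724 falls were also called after centring, so changes below are read beside that median. Without culture 5 the falls numbered 388. In 77 tested genes every IFNg culture lay above every untreated one (0.700% of genes tested), and in 16 every IFNg culture lay below (0.145%).

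The 12 rises chosen by size and by lack of overlap between the groups were H2-Eb1, H2-Aa, Gbp2, Ly6a, H2-Ab1, Iigp1, Tgtp2, Cd74, Gbp4, Ifi47, Fgl2 and Gbp8. Gbp2, a guanylate-binding protein, reached the highest level of them. It lay between 10074 and 12982 CPM (median 11900.4) with IFNg and between 0.797 and 181 CPM (median 35.4) without. All 6 IFNg cultures were alike, and each exceeded the highest untreated culture by far. Its difference was 8.70 ± 0.68 (SE) on the log2(CPM + 1) scale (limma, adjusted p = 3.38e-12). Ly6a, which encodes the surface protein Sca-1, lay between 471 and 1021 CPM with IFNg and at most 5.44 CPM without. The difference of Ly6a was 8.42 ± 0.48 (limma, adjusted p = 2.02e-15). Fgl2, a secreted and membrane-bound member of the fibrinogen family, lay between 71.9 and 609.8 CPM with IFNg and between 0 and 19.1 CPM without.

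**Figure D1:**
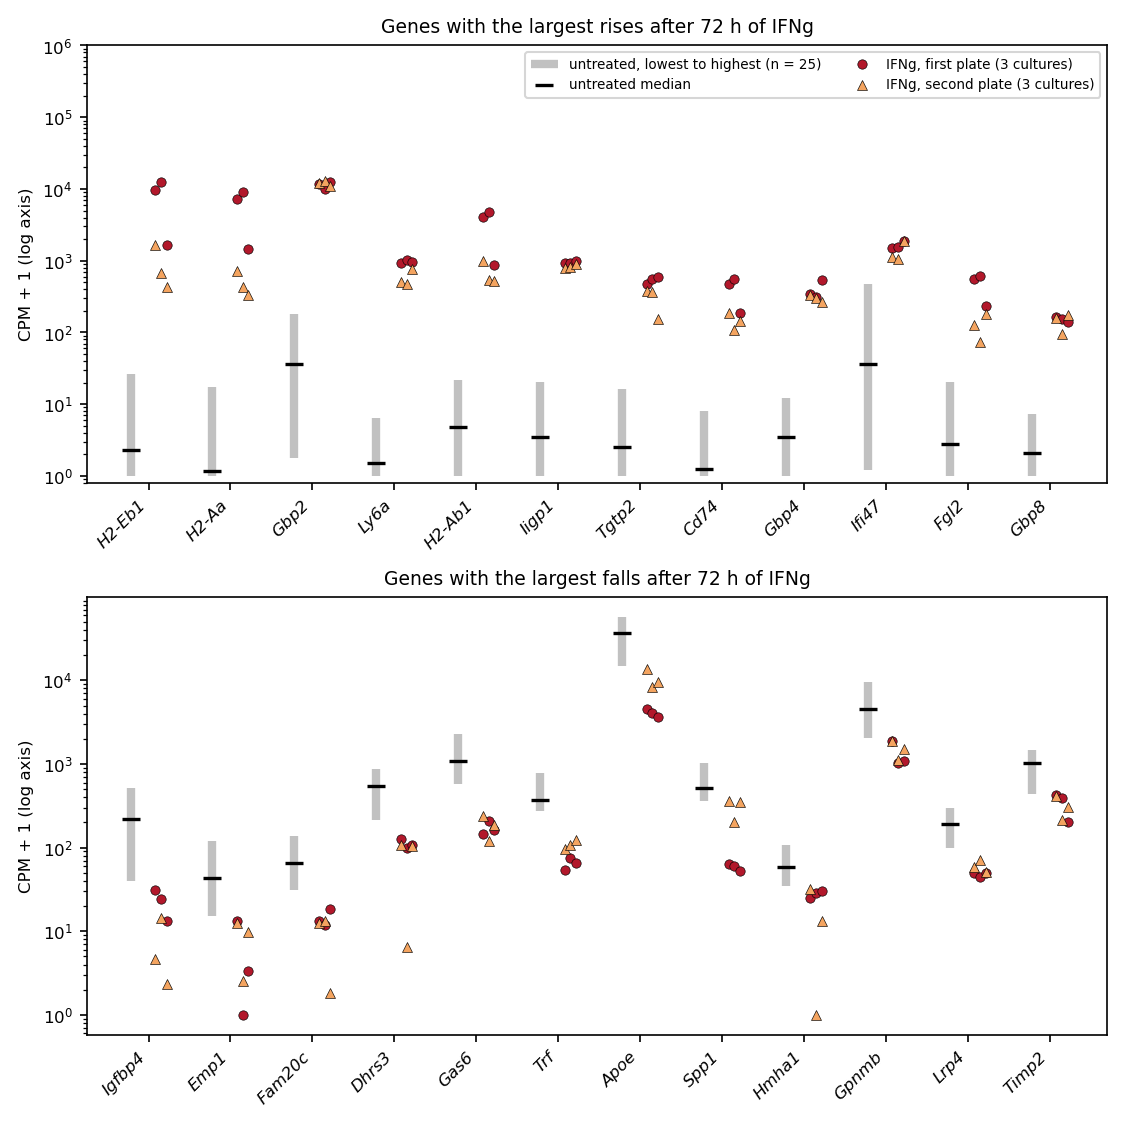
CPM + 1 on a log axis for the 12 rises (top) and the 12 falls (bottom). Points are the 6 IFNg cultures, circles for the first plate and triangles for the second, and grey bars run from the lowest to the highest of 25 untreated cultures with the median as a dash. In no gene do the points touch the bar, which the rule for choosing these genes required, and the class II genes H2-Eb1, H2-Aa and H2-Ab1 spread far more between IFNg cultures than Gbp2 or Iigp1 do.

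No chain of the receptor and no kinase attached to it was called. Ifngr1 lay between 23.2 and 160.1 CPM with IFNg and between 15.1 and 108 CPM without, and the ranges overlapped. Jak2 had a median of 42.8 CPM with IFNg and 21.98 CPM without, with a difference of 0.76 ± 0.45 (limma, adjusted p = 0.29). Ifng itself was listed at 0 CPM in all 6 IFNg cultures. Downstream, 7 of 12 STAT and IRF transcription factors tested and counted here rose and none fell, and the median of the 12 differences was 1.14. Irf1 was even over the 6 IFNg cultures. It lay between 439 and 574 CPM with IFNg against 5.91 to 53.1 CPM, a difference of 4.70 ± 0.33 (limma, adjusted p = 4.53e-13). Smaller rises were those of Stat3 at 2.43, Irf7 at 2.09, Stat2 at 1.62, Irf8 at 1.37, Irf5 at 1.20 and Irf9 at 1.09. The call of Irf9 was lost in 7 alternative fits. Irf5, Irf7, Irf8, Irf9 and Stat2 lost the call within the second plate, and Stat2 also without culture 4. On that plate 2 of 11 tested factors were called higher, against 1.53% of all genes tested there. Irf8, a factor that microglia need for their development, had its highest value of 1796 CPM in culture 4 and lay between 680.2 and 966 CPM in the other five.

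Of 10 tested genes that damp cytokine signalling, 3 rose and none fell. Within the first plate 5 of 9 were called higher, against 4.46% of all genes tested there. Within the second plate 0 of 10 were (median 0.32), against 1.53%. Socs1, an inhibitor of JAK kinases, was at 662, 757 and 470.1 CPM in the IFNg cultures of the first plate and at 129.6, 118 and 50.4 CPM in those of the second. Untreated cultures were at 37.2 CPM or below, so the groups did not overlap, and the difference was 5.60 ± 0.68 (limma, adjusted p = 1.72e-07). Socs3, its relative, was at 7.73 CPM in culture 5 and between 71.7 and 145 CPM in the other five, against at most 17.98 CPM in untreated cultures. Il18bp, which binds and blocks interleukin 18, was also at 7.73 CPM in culture 5, the culture with the fewest reads, while the other five lay between 124 and 158 CPM. The calls of Socs1, Socs3 and Il18bp were lost within the second plate. Usp18, a brake on the type I interferon receptor, was not called (1.29 ± 0.68, limma, adjusted p = 0.23).

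The interferon-induced GTPases rose as a family. Guanylate-binding proteins (GBPs) and immunity-related GTPases (IRGs) coat and break the vacuoles in which microbes hide. Of 9 tested GBP genes 8 rose, of 10 tested IRG genes 10 rose, and none of either fell, with medians of 5.23 and 5.27 against -0.32 over all genes tested. Iigp1 lay between 778 and 977 CPM with IFNg and between 0 and 19.7 CPM without (8.22 ± 0.57, limma, adjusted p = 2.88e-13). Igtp lay between 896 and 1561 CPM against at most 84.98 CPM. Ifi47 lay between 1046 and 1905 CPM against 0.209 to 480.1 CPM, and had the widest untreated range of the 12 rises. The tested GBP genes lie in a cluster on each of chromosomes 3 and 5 (GRCm38, GENCODE annotation). The 4 tested GBP genes at chr3:142493978-142638008, Gbp5, Gbp7, Gbp3 and Gbp2, all rose. On chromosome 5, 4 of 5 tested GBP genes between 105014150 and 105346472 rose, and the exception was Gbp9, at 0.404 to 32.1 CPM against 0 to 7.12 CPM (1.61 ± 0.59, limma, adjusted p = 0.074). All 8 tested IRG genes of chromosome 11, spread over 9361 kb, rose. Tgtp1 and Tgtp2 are near-identical copies, as are several others in these clusters, so the split of reads between copies is uncertain.

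Promoter sequences of these genes were searched for GAS (TTCNNNGAA) and ISRE (GAAANNGAAA) on both strands, from 250 bases before the start of the gene up to it. The RefSeq promoter table (GRCm38.p6) held a sequence for 193 of the 302 called rises and 543 of the 724 called falls. A GAS match stood in 15.5% of the matched rises, in 7.37% of the matched falls and in 8.13% of all 27025 promoters. An ISRE match stood in 17.6%, 2.76% and 3.46%, and both stood in 3.63%, 0.184% and 0.459%. Of the 7909 tested genes with a promoter sequence, 6.98% held GAS, 3.38% held ISRE and 0.430% held both. Among the 18 called GBP and IRG genes 12 had a promoter in the table, of which 6 held GAS, 9 held ISRE and 6 held both. A match describes the letters and does not show that a factor binds there. The sequences below run 5′ to 3′ along the gene's strand and show the matches in capitals with flanking bases. TTTCNNTTTC is the ISRE read on the other strand. The printed sequences were chosen from GTPase genes that rose, from Irf1 and from Socs1. Each of them holds a match, so they do not show how often such promoters hold one.
Igtp, chr11:58199481-58199555, + strand, GAS then ISRE: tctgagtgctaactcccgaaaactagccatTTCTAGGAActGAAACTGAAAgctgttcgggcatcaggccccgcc
Irgm2, chr11:58214872-58214952, + strand, GAS then ISRE: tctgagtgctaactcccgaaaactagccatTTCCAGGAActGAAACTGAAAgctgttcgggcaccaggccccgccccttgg
Tgtp2, chr11:49064243-49064323, - strand, GAS then ISRE: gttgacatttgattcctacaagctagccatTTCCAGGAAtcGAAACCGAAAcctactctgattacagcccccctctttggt
Gbp7, chr3:142530200-142530322, + strand, 2 GAS then ISRE: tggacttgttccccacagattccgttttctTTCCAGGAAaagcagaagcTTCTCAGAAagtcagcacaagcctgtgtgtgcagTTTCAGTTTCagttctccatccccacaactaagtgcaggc
Gbp2, chr3:142620574-142620643, + strand, ISRE: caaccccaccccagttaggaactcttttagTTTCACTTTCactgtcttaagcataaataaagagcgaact
Irf1, chr11:53769894-53769962, + strand, GAS: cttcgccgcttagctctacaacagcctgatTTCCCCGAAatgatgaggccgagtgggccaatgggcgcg
Socs1, chr16:10785574-10785649, - strand, 2 overlapping ISRE: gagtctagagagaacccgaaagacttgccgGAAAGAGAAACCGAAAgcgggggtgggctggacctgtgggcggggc

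In Igtp, Irgm2 and Tgtp2 the GAS and the ISRE were 2 bases apart. The GAS match ended 36 bases before the RefSeq gene start in Igtp, 66 in Irgm2 and 72 in Tgtp2. The GENCODE annotation starts Irgm2 at 58199618 and Gbp2 at 142620602, so that in these genes the matches lie inside the gene as annotated there. In Gbp7 the distance from the nearer GAS to the ISRE was 25 bases. All 4 of these genes were called, with differences of 5.73 for Igtp, 4.52 for Irgm2, 7.21 for Tgtp2 and 5.23 for Gbp7. Gbp2, whose window held an ISRE and no GAS match, had the difference of 8.70 given above.

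MHC class II genes held the 2 largest of the 12 rises and spread widely between the IFNg cultures. Class II molecules present peptides to CD4+ T cells, and CD74 is the chain that guides them through the cell. Of 11 tested class II genes 7 rose and none fell, with a median of 2.01. H2-Aa was at 7205, 9114 and 1462 CPM in cultures 1 to 3 and at 713, 424 and 329 CPM in cultures 4 to 6. Untreated cultures reached 16.6 CPM (median 0.161). The groups did not overlap, and among the IFNg cultures the first plate was above the second. The difference was 9.13 ± 0.75 over all cultures (limma, adjusted p = 1.42e-11), 8.90 within the first plate and 8.47 within the second. H2-Eb1 was likewise highest in culture 2, at 12663 CPM, and lowest in culture 6, at 424 CPM (9.24 ± 0.75, limma, adjusted p = 1.06e-11). Cd74 lay between 107 and 553 CPM against at most 6.996 CPM. H2-DMa, which loads peptides, was at 652, 856 and 172 CPM on the first plate and at 6.46, 149 and 15.7 CPM on the second, where cultures 4 and 6 lay within the untreated range of 0 to 54.4 CPM. Ctss, the protease that trims the CD74 protein, was far more even, at 2699 to 4561 CPM against 849 to 2183 CPM (1.34 ± 0.20, limma, adjusted p = 9.10e-06). Ciita, the class II transactivator, did not pass the filter for testing. Its level was 6.003, 4.58 and 0.159 CPM in cultures 1 to 3, 21.3, 0 and 9.69 CPM in cultures 4 to 6, and at most 2.75 CPM in untreated cultures.

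Untreated H2-Aa differed between the library pools in which the wells were sequenced. It was 13.8 to 16.6 CPM in the 5 wells that shared a pool with IFNg cultures 1 to 3 and 2.70 to 6.64 CPM in the 5 wells of the same plate in another pool. It was at most 1.20 CPM in the wells pooled with IFNg cultures 4 to 6, and 0 CPM on the plates without IFNg. Untreated H2-Eb1 was split likewise on the first plate, at 11.3 to 24.96 CPM and 3.11 to 6.26 CPM, but reached 19.6 CPM in a well of a plate without IFNg. Untreated Cd74 overlapped between these pools, at 1.83 to 6.996 CPM and 1.92 to 4.92 CPM. The part of the pool in these untreated levels was not tested. Of 7 genes listed as dendritic cell markers 3 passed the filter for testing, with a median of -0.32. Of these Xcr1 rose (3.29) while Zbtb46 and Siglech were not called. Siglech is not confined to dendritic cells, since microglia express it too. Clec9a, a receptor for dead cells, was at 177, 146 and 60.98 CPM in cultures 1 to 3, at 0, 3.86 and 0 CPM in cultures 4 to 6, and at most 0.838 CPM in untreated cultures. Xcr1, a chemokine receptor, ranged from 2.52 to 75.02 CPM with IFNg and from 0 to 28.6 CPM without. Ccr7, a receptor of migrating dendritic cells, was at 32.7 CPM in culture 6 and 0 CPM in the other five. The 7 listed markers, Siglech included, summed to 11.03 to 233 CPM with IFNg and 0.252 to 46.2 CPM without, and Cd209a was at 0 CPM in both groups. Their part in the class II levels was not tested.

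**Figure D2:**
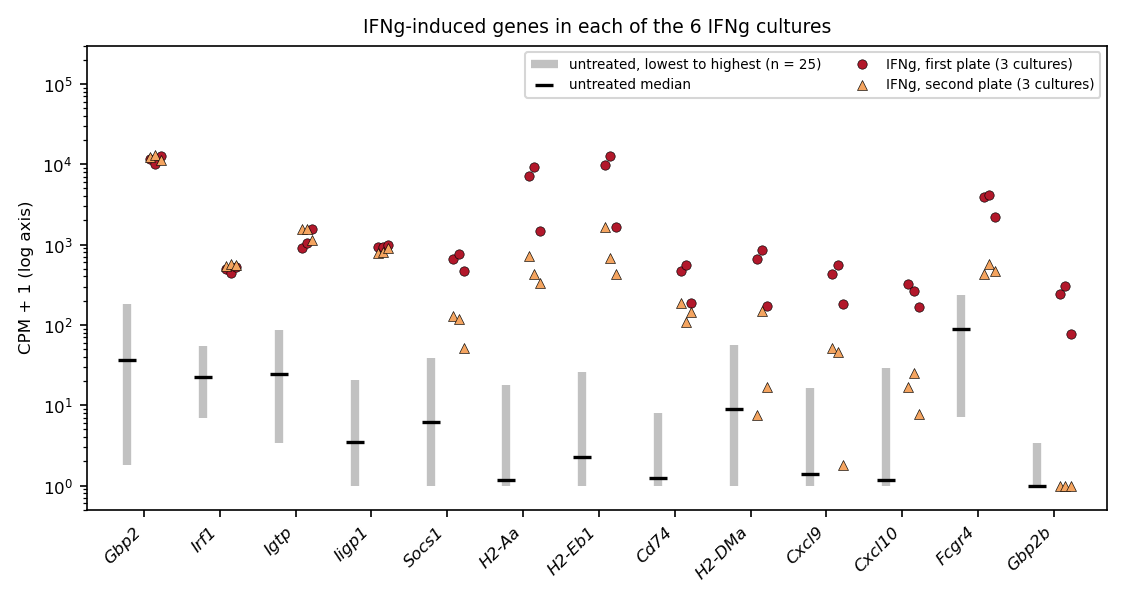
CPM + 1 on a log axis in each IFNg culture (circles, first plate; triangles, second plate) and the range of 25 untreated cultures (grey bars, median as a dash) for 13 genes. Gbp2, Irf1, Igtp and Iigp1 are nearly level over the 6 cultures, while Socs1, H2-Aa, Cxcl9, Cxcl10, Fcgr4 and Gbp2b are lower on the second plate, and Gbp2b is at 0 there.

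MHC class I presentation rose with a smaller spread. Class I molecules show peptides from within the cell to CD8+ T cells, and 10 of 17 tested genes of that pathway rose while none fell (median 1.83). B2m, the shared light chain, lay between 6312 and 12278 CPM with IFNg and between 865 and 4073 CPM without (2.14 ± 0.24, limma, adjusted p = 1.75e-08). The heavy chain H2-K1 lay between 2545 and 5938 CPM against 294 to 2110.0 CPM (1.93 ± 0.31, limma, adjusted p = 3.48e-05). H2-D1 was just short of the minimum change at 0.96 ± 0.18 (limma, adjusted p = 2.54e-04). Tap1, a subunit of the peptide transporter, lay between 132 and 433 CPM against at most 70.6 CPM. All 5 tested genes of the immunoproteasome and its activator rose, with a median of 2.48, while none of the 3 catalytic subunits that they replace was called (median -0.11). Psmb8 was at 378 to 785 CPM against 43.4 to 175 CPM, without overlap (2.48 ± 0.23, limma, adjusted p = 3.01e-10). Psmb5, its constitutive counterpart, was at 101 to 768 CPM against 98.6 to 369.8 CPM (0.46 ± 0.32, limma, adjusted p = 0.39). Nlrc5, a transactivator of class I genes, was called at 2.02 ± 0.66 (limma, adjusted p = 0.044) but lost the call in 11 alternative fits, and was at 0 CPM in culture 5.

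Among ligands on the surface that meet T cells, 4 of 9 tested rose and 1 fell, with a median of -0.44 against -0.32 over all genes tested. Within the first plate 4 of 9 were called higher (median 0.56), against 4.46% of all genes tested there. Within the second plate 1 of 7 was (median of these 7 -1.25), against 1.53%. Cd274, which encodes the checkpoint ligand PD-L1, lay between 45.3 and 275 CPM with IFNg and between 0.559 and 24.6 CPM without, and the groups did not overlap (4.60 ± 0.42, limma, adjusted p = 2.65e-10). The costimulator Cd86 rose by 3.15, the adhesion ligand Icam1 by 3.23 and Cd40 by 2.62, although Cd40 was at 0.415 CPM in culture 6. Cd86 and Icam1 lost the call within the second plate. Cd276 fell, from a median of 7.93 to 0.404 CPM, but was not called within either plate or without culture 5. Both tested CXCR3 ligands rose. Cxcl9 was at 427, 558 and 179.9 CPM on the first plate and at 50.9, 45.6 and 0.807 CPM on the second, against at most 15.3 CPM in untreated cultures. Culture 6 thus lay within the untreated range, and the difference was 5.05 ± 0.79 (limma, adjusted p = 1.99e-05). Cxcl10 showed a like split, with 167 to 322 CPM in cultures 1 to 3 and 6.86 to 23.96 CPM in cultures 4 to 6 (4.84 ± 0.68, limma, adjusted p = 3.07e-06). Of 12 other chemokines tested 2 rose and 1 fell. Cxcl16, a membrane-bound chemokine, lay between 195 and 679 CPM against 31.7 to 167 CPM (2.00 ± 0.28, limma, adjusted p = 2.35e-06). Ccl5 had a median of 395 CPM with IFNg and 199.6 CPM without and was not called (1.57 ± 0.64, limma, adjusted p = 0.11).

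Of 25 tested antiviral genes that are best known from type I interferon 13 rose and none fell, with a median of 1.52. Zbp1, a sensor of Z-form nucleic acids, lay between 79.2 and 498 CPM with IFNg against at most 70.1 CPM (4.08 ± 0.60, limma, adjusted p = 6.04e-06). Ifit3 lay between 405 and 1144 CPM with IFNg and between 0.835 and 1538 CPM without (3.74 ± 0.70, limma, adjusted p = 3.06e-04). Its untreated maximum came from 1 culture on the first plate, untreated culture 10, which also had the highest untreated Gbp2, and without which the untreated maximum was 187 CPM. Without that culture 13 antiviral genes again passed. Oas2, Ifitm3 and Oasl1, in contrast, were not called, with differences of -0.12 ± 0.63, 0.37 ± 0.80 and 1.23 ± 0.90.

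Of 8 tested genes of inflammatory cytokines and their antagonists 3 rose, and of 7 tested genes of arginine, itaconate and tryptophan metabolism 2 rose, with no falls in either list. Within the first plate 5 of 7 tested genes of the cytokine list were called higher, against 4.46% of all genes tested there. Within the second plate 0 of 6 were (median -0.13), where only 1.53% of all genes tested were called higher. Tnf and Il1b lost the call within the second plate, Il1b also by the exact rank-sum test, and Il1rn, the interleukin 1 receptor antagonist, lost it in 11 of 20 alternative fits. Tnf was at 481, 453 and 526 CPM in IFNg cultures 3, 1 and 2 and at 84.7, 122 and 222 CPM in cultures 6, 4 and 5, against at most 123 CPM without IFNg (3.00 ± 0.65, limma, adjusted p = 0.0018). The first plate thus stood above the untreated range, and cultures 4 and 6 lay within it. Irg1, which makes the antimicrobial metabolite itaconate and is now named Acod1, lay between 67.4 and 266 CPM against at most 15.2 CPM (5.27 ± 0.51, limma, adjusted p = 7.60e-10). Wars, the tryptophan tRNA synthetase, lay between 92.5 and 345 CPM against at most 66.1 CPM (3.23 ± 0.34, limma, adjusted p = 6.33e-09). Nos2, the inducible nitric oxide synthase, reached 15.2 CPM with IFNg and 13.8 CPM without, and was not called (0.33 ± 0.74, limma, adjusted p = 0.82). None of the 6 NADPH oxidase genes was called. Among 19 genes of inflammasomes and cell death 3 rose, namely Casp1 at 1.65, Casp4 at 2.57 and Ripk3 at 2.30. The pore-former Gsdmd was not called at 0.69 ± 0.37.

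The Fc gamma receptors, which bind antibody, moved in opposite directions. The activating receptor Fcgr4 was at 3958, 4171 and 2170.5 CPM in cultures 1 to 3 and at 426, 570.4 and 469 CPM in cultures 4 to 6, against 6.21 to 237 CPM without IFNg (3.96 ± 0.54, limma, adjusted p = 1.75e-06). Fcgr1, the high-affinity receptor, lay between 201 and 566 CPM against at most 181 CPM (2.85 ± 0.31, limma, adjusted p = 1.21e-08). The inhibitory receptor Fcgr2b fell, with 0 to 108 CPM against 91.5 to 582 CPM, a difference of -4.27 ± 0.54 (limma, adjusted p = 3.04e-07). Only culture 2 reached the untreated range of Fcgr2b. The other 2 of the 5 genes in that list were not called. Of 15 tested complement genes 4 rose and 1 fell. C1qb, a chain of the first complement component, lay between 2579 and 5589 CPM against 618 to 3102 CPM (1.51 ± 0.33, limma, adjusted p = 0.0019). Itgam, a chain of complement receptor CR3, fell by 1.27, and neither within a plate nor after centring was it called.

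Among the falls, the 12 chosen by the same rule were Igfbp4, Emp1, Fam20c, Dhrs3, Gas6, Trf, Apoe, Spp1, Hmha1, Gpnmb, Lrp4 and Timp2. Apoe, which carries cholesterol between cells, had the highest level. It was at 4516, 4063 and 3635 CPM in cultures 1 to 3 and at 13759.6, 8266 and 9564 CPM in cultures 4 to 6. Untreated wells of the first plate were at 14925 to 19958 CPM and those of the second at 36372 to 53132 CPM. The 2 plates thus differed in level, while the differences within them were -2.05 and -2.19 (all cultures -2.23 ± 0.32, limma, adjusted p = 3.93e-06). Gas6, a ligand of the phagocytic receptors Axl and Mertk, lay between 119 and 235 CPM with IFNg and between 577 and 2297 CPM without (-2.67 ± 0.24, limma, adjusted p = 1.52e-10). Igfbp4, which binds insulin-like growth factors, lay between 1.33 and 29.9 CPM against 39.2 to 520.4 CPM (-4.22 ± 0.54, limma, adjusted p = 4.44e-07). Trf, the iron carrier transferrin, lay between 52.97 and 122 CPM against 277 to 788 CPM (-2.24 ± 0.21, limma, adjusted p = 2.05e-10). Timp2, an inhibitor of matrix metalloproteinases, had medians of 351 CPM with IFNg and 1031 CPM without (-1.60 ± 0.20, limma, adjusted p = 2.64e-07).

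Of 16 tested genes that mark disease-associated and phagocytic microglia 6 fell and none rose, with a median of -0.83. Spp1, or osteopontin, was at 51.4 to 63.6 CPM in IFNg cultures of the first plate and 203 to 357 CPM in those of the second, against 363 to 1038 CPM (-2.12 ± 0.30, limma, adjusted p = 2.64e-06). Gpnmb, a glycoprotein of the lysosomal pathway, lay between 1036 and 1904 CPM against 2069 to 9497 CPM, and the lysosomal protease Ctsd between 900.00 and 2625 CPM against 2493 to 7045 CPM. The fatty acid binding protein Fabp5 fell by 1.53 on the log2 scale. Itgax, the sixth, was called at -1.85 but lost the call in 12 alternative fits. Trem2, a lipid receptor of the same list, was not called (-0.46 ± 0.18, limma, adjusted p = 0.091), nor was the lipase Lpl (0.47 ± 0.48, limma, adjusted p = 0.57).

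Of 14 genes that mark microglia at rest, tested and counted here, 2 fell and none rose, against 6.58% falls among all genes tested. Their median was -0.56, against -0.32 over all genes. Within the first plate 6 of 13 were called lower (median -1.09), against 10.9% of all genes tested. Within the second plate 2 of 9 genes of the resting state were (median -0.64), against 2.18% of all genes tested. Fcrls, a surface protein of that state, lay between 0 and 54.7 CPM with IFNg and between 8.56 and 716 CPM without (-4.79 ± 0.64, limma, adjusted p = 1.39e-06). The ranges touched only through low untreated wells. Tmem119 was low in the untreated cultures already, with a median of 9.57 CPM, and fell by 2.27. Csf1r, the growth factor receptor that microglia depend on, had medians of 2729 and 2741 CPM with and without IFNg (0.01 ± 0.30, limma, adjusted p = 0.99). The fractalkine receptor Cx3cr1 was not called. It was at 238 and 329 CPM in cultures 1 and 2, at 9.05 CPM in culture 3 and at most 1.64 CPM in cultures 4 to 6, against 1.24 to 265 CPM in untreated cultures. P2ry12 reached only 1.77 CPM with IFNg and 7.93 CPM without, and was scarce in these cultures. Of 11 tested scavenger and phagocytic receptors and their ligands 3 fell, namely Mrc1 by 2.95, Gas6 and Stab1 by 2.58. Mrc1 is also a marker of perivascular macrophages, whose 6 markers summed to 39.1 to 195 CPM with IFNg and 91.4 to 707 CPM without. Whether those cells were fewer was not tested. Of 8 tested genes of matrix turnover the protease Mmp13 rose (2.22) and Mmp8, Mmp12 and Timp2 fell, and Mmp12 was not called after centring. Of 11 tested Toll-like receptor and adaptor genes only Tlr7 was called, and it was lower (-2.37). Tlr7 lost the call within the second plate. The scavenger, matrix and Toll-like receptor counts are to be read beside the 6.58% of all genes tested that fell.

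By their medians both the rises and the falls were larger on the second plate, and the falls by more. Of the 302 rises 297 had the same direction on both plates, with medians of 1.71 on the first and 2.43 on the second, and 206 were larger on the second plate. Of the 724 falls 701 had the same direction, but their medians were -0.97 and -2.69, and 617 were larger on the second plate, where the IFNg libraries were shallow. Among the 3316 tested genes with a mean of at least 50 CPM in either group, 215 rose and 340 fell, and the median difference was -0.16. Within the first plate alone, 449 of 10075 genes rose (4.46%) and 1101 fell (10.9%). Within the second plate alone, 134 of 8762 rose (1.53%) and 191 fell (2.18%).

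**Figure D3:**
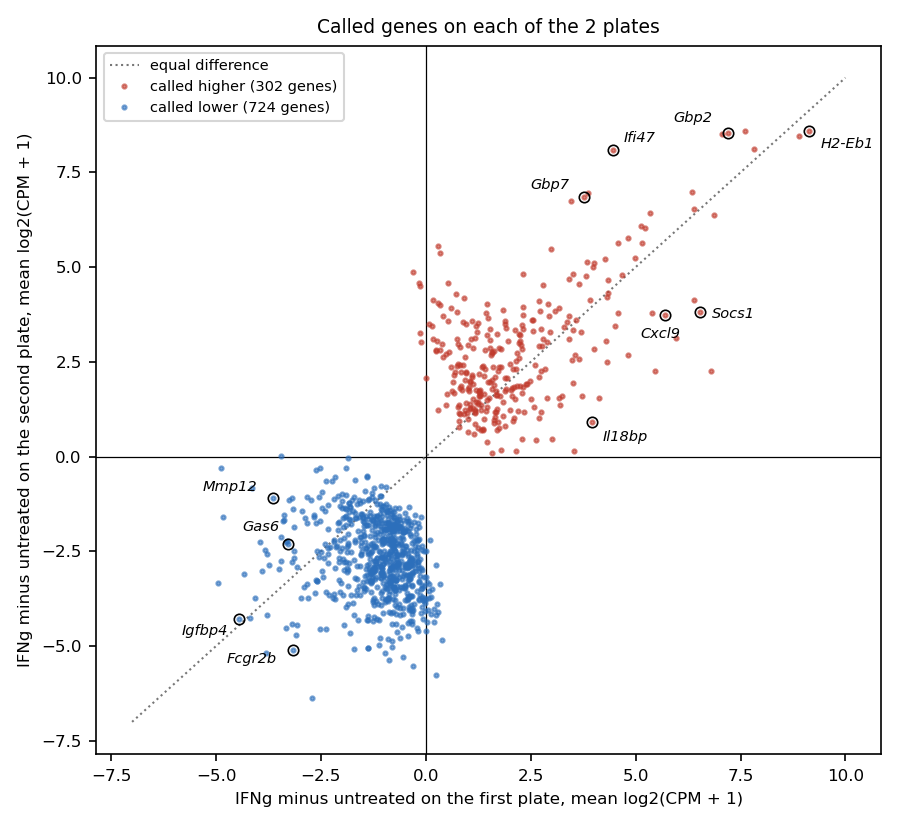
Mean log2(CPM + 1) of IFNg minus untreated cultures on the first plate (x) and on the second plate (y) for the 302 called rises (red) and 724 called falls (blue), with the line of equal difference dotted. Of the rises 206 and of the falls 617 are larger on the second plate, and the falls form a steep cloud.

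Genes of cell division and of sterol synthesis were called lower within the first plate and not within the second. Of all genes tested, 10.9% were called lower within the first plate and only 2.18% within the second. Of 23 genes of cell division tested within the first plate 18 were called lower, with a median of -2.13. On the second plate 0 of 12 were, and the median of these 12 was -0.53. Over all 23 genes, those too low for a test on the second plate included, the median difference of the means there was 0.39, of the opposite sign. Top2a, which untangles chromosomes, was at 132, 90.4 and 7.68 CPM in cultures 1 to 3 and 261 to 463 CPM in the untreated wells beside them. On the second plate it was at 0.807 to 6.87 CPM with IFNg and 0 to 60.7 CPM without. Ccnb2, a cyclin of mitosis, was at 88.5 to 237 CPM in untreated wells of the first plate and at most 4.98 CPM in those of the second. Untreated wells of the second plate were thus already below IFNg cultures 1 and 2 in this gene. Over all cultures 3 of 23 fell, namely Mcm7, Cdk1 and Mcm3. Cdk1 lost the call in 10 of 20 alternative fits and Mcm3 in 6. Both lost it without culture 4, without culture 5, without culture 6 and by the exact rank-sum test, while Mcm7 lost it only within the second plate. Of 19 genes of sterol synthesis and transport counted here 14 were called lower and 2 higher within the first plate, with a median of -1.70, and 0 of 16 were called on the second, with a median of -0.88. Idi1, of the mevalonate pathway, was at 2.47, 0.859 and 3.82 CPM against 15.4 to 37.3 CPM on the first plate. Srebf2, the factor that drives the pathway, was at 14.9 to 25.4 CPM against 69.5 to 90.9 CPM there, and at 1.21 to 20.9 CPM against 2.09 to 32.2 CPM on the second plate. Over all cultures 5 of 19 fell, among them Cyp51 (-2.09), an enzyme of sterol synthesis, and the exporter Abca1. Abca1 lay between 10.5 and 54.4 CPM with IFNg and between 12.3 and 198 CPM without. The exporter Abcg1 rose (1.34). Cyp51, Abca1 and Abcg1 lost the call within the second plate, Cyp51 also without culture 5 and Abcg1 also with library pool in the model. Without culture 5, 2 of the 19 fell. The difference between the plates was not tested.

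The response at 72 h was next set against that at 24 h. No class II gene and no STAT or IRF factor counted here passed the test of a difference between the times, while Klrk1 and Ccl2 were higher at 24 h and Clic5 and Il1b at 72 h. In the test of the difference between the responses, 64 of 12411 genes were higher at 72 h (0.516%) and 405 were lower (3.26%). These counts rest on single wells. Leaving out any 1 IFNg culture of the first plate gave 149 to 177 higher and 811 to 894 lower, and leaving out any 1 of the second gave 31 to 38 higher and 153 to 248 lower. The 24 h IFNg cultures were from other cell lots (Sciencell_Feb15 and Sciencell_March15), so time and lot cannot be told apart. Of 13 tested class II genes none differed, of 28 antiviral genes 2 were lower at 72 h, of 10 GBP genes 3 were lower and of 12 IRG genes 1 was lower. H2-Aa lay between 916 and 1726 CPM (median 1029) at 24 h, and its median of 1087 CPM at 72 h was close to that, with a wider range (difference of the responses 0.33 ± 0.81, limma, adjusted p = 0.87). At 72 h cultures 1 and 2 lay above the 24 h range of H2-Aa, culture 3 within it and cultures 4 to 6 below it. Gbp2 was at 4081 to 6931 CPM at 24 h, below every 72 h culture, but its responses did not pass the test (1.88 ± 0.65, limma, adjusted p = 0.079).

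The genes with the largest fall in response from 24 to 72 h were Klrk1, Dhrs9, Gbp2b, Ccl2 and Itpka. Klrk1, an activating receptor best known from NK cells, lay between 166 and 272 CPM in all 9 IFNg cultures at 24 h. At 72 h it was at 58.3, 54.7 and 4.14 CPM on the first plate and 0 CPM on the second (-4.48 ± 0.64, limma, adjusted p = 7.19e-07). The groups did not overlap between the times, although the 72 h plates differed. Gbp2b showed the same split, with 208 to 529.9 CPM at 24 h, 75.3 to 306 CPM on the first plate at 72 h and 0 CPM on the second (-4.07 ± 0.72, limma, adjusted p = 1.28e-04). Ccl2, a chemokine for monocytes, had a median of 319 CPM at 24 h and 4.37 CPM at 72 h, where untreated cultures had 6.39 CPM (-4.07 ± 0.90, limma, adjusted p = 0.0028). The 72 h plates differed here too. Ccl2 was at 60.7, 41.2 and 7.96 CPM in cultures 1 to 3, against 8.62 to 26.6 CPM in untreated wells of that plate. On the second plate it was at most 0.773 CPM, against at most 2.57 CPM in untreated wells. Itpka, a kinase of inositol phosphates, lay between 10.5 and 25.03 CPM at 24 h and was at 0 CPM in 5 of 6 cultures at 72 h. In the other direction were Il1b, Clic5, Gm37515, Adcy4 and Cxcl2. Clic5, a chloride channel protein, was at 0.555 to 7.34 CPM at 24 h and at 5.72 to 193 CPM at 72 h (3.45 ± 0.44, limma, adjusted p = 4.07e-08). Here cultures 1 and 2, in middle wells, were at 6.36 and 5.72 CPM and cultures 3 to 6, in edge wells, at 73.5 CPM or more. The part of the well position was not tested. The response of Il1b, an inflammatory cytokine, was -1.29 at 24 h and 2.67 at 72 h, with 0.403 to 108 CPM among the 72 h IFNg cultures (3.96 ± 0.89, limma, adjusted p = 0.0032). The rise of Il1b at 72 h lost the call within the second plate and by the exact rank-sum test.

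**Figure D4:**
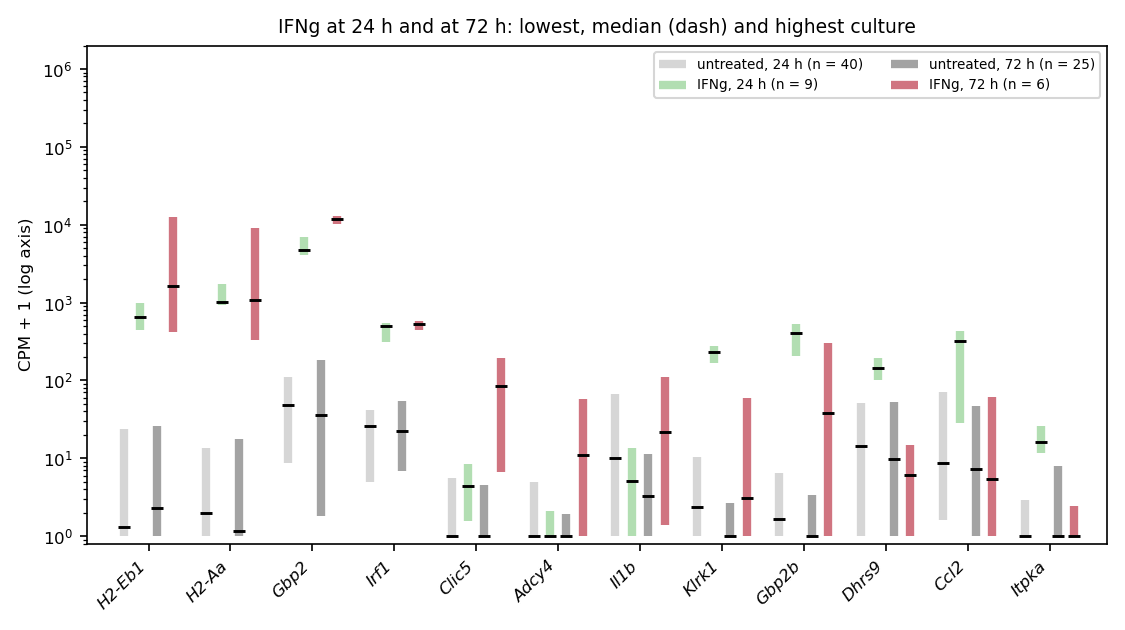
CPM + 1 on a log axis for 12 genes, with bars from the lowest to the highest culture and the median as a dash, for untreated (light grey) and IFNg (green) cultures at 24 h and untreated (dark grey) and IFNg (red) cultures at 72 h. H2-Aa and Irf1 reach similar medians at both times, although H2-Aa spreads at 72 h to both sides of its 24 h range. Clic5 is higher at 72 h, and Klrk1, Gbp2b, Dhrs9, Ccl2 and Itpka are highest at 24 h.

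IFNb, a type I interferon that acts through another receptor, was given at the same mass per volume for the same time. Class II genes led the list of genes higher with IFNg, and 17 of 28 tested antiviral genes were higher with IFNb. Of 11160 genes tested directly, 89 were higher with IFNg (0.797%) and 264 lower (2.37%). All 4 IFNb cultures were on the first plate, and in a fit of that plate alone 321 of 10030 genes were higher (3.20%) and 527 lower (5.25%). Leaving out any 1 IFNb culture gave 53 to 60 higher and 119 to 126 lower. H2-Aa was at 4.32, 6.30, 14.4 and 13.8 CPM with IFNb, within the untreated range, against 329 CPM or more with IFNg (7.23 ± 1.03, limma, adjusted p = 8.28e-06). On the shared plate the difference of H2-Aa was 8.88 ± 0.60 (limma, adjusted p = 1.04e-09). With IFNa, at 0.0008 µg/µl, it was 0 CPM in all 7 cultures, on other plates. Of 11 tested class II genes 6 were higher with IFNg and none lower. The GTPases were higher with IFNg in 5 of 9 GBP and 4 of 11 IRG genes and lower in none. On the shared plate 8 of 11 class II, 5 of 7 GBP and 5 of 10 IRG genes were higher and 1 IRG gene, Gm5431, was lower. Gbp2 was at 336 to 456 CPM with IFNb and 304 to 719 CPM with IFNa, above untreated cultures but below the 10074 CPM of the lowest IFNg culture (4.92 ± 0.92, limma, adjusted p = 6.75e-04). Irf1 lay between 82.7 and 117 CPM with IFNb (2.37 ± 0.45, limma, adjusted p = 7.70e-04). Socs3 was at 3.15 CPM or less with IFNb (4.56 ± 0.80, limma, adjusted p = 2.76e-04), and Zyx, a focal adhesion protein, at 20.5 CPM or less against 204 to 724 CPM with IFNg (4.44 ± 0.68, limma, adjusted p = 3.53e-05).

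None of the 28 antiviral genes was higher with IFNg than with IFNb, with a median difference of -3.05 against -0.47 over all genes. On the shared plate 24 of 28 were lower with IFNg, with a median of -2.13 against -0.09. Rsad2, which encodes viperin, was at 1659 to 1979 CPM with IFNb, 884 to 2489 CPM with IFNa and 60.4 to 201 CPM with IFNg (IFNg minus IFNb -4.03 ± 0.80, limma, adjusted p = 0.0015). Isg15, the ubiquitin-like modifier, lay between 415 and 596 CPM with IFNb and between 14.1 and 58.97 CPM with IFNg (-3.79 ± 0.89, limma, adjusted p = 0.0091). The 5 genes lowest with IFNg relative to IFNb were Ms4a4c, Pydc4, Slfn4, Gm14446 and Gm26674. Ms4a4c, a tetraspan membrane protein, was at 374 to 460.3 CPM with IFNb and at 10.02 CPM or less with IFNg, within the untreated range (-7.22 ± 0.88, limma, adjusted p = 5.93e-07). On the shared plate the difference of Ms4a4c was -5.72 ± 0.47 (limma, adjusted p = 1.56e-08). B2m was at 5823 to 6726 CPM with IFNb and was not called over all cultures (0.31 ± 0.32, limma, adjusted p = 0.61) or on the shared plate (0.09 ± 0.12, limma, adjusted p = 0.7). The call of Fcgr4 depended on the plates. It was at 1114 to 1313 CPM with IFNb, below the 2170.5 to 4171 CPM of IFNg cultures 1 to 3 beside them and above the 426 to 570.4 CPM of cultures 4 to 6. Its difference was 0.05 ± 0.73 over all cultures (limma, adjusted p = 0.98) and 1.43 ± 0.20 on the shared plate (limma, adjusted p = 2.33e-05). Among the falls, Gpnmb was at 3425 to 4300.2 CPM with IFNb, within the untreated range and above every IFNg culture (-1.48 ± 0.28, limma, adjusted p = 7.68e-04). Apoe was at 17461 to 20852 CPM with IFNb, with a difference of -1.54 ± 0.43 over all cultures (limma, adjusted p = 0.038) and -2.21 ± 0.12 on the shared plate (limma, adjusted p = 3.34e-11), where untreated levels were lower than on the second plate. Gas6 was at 351 to 477 CPM with IFNb, below every untreated culture and above every IFNg culture (-1.29 ± 0.33, limma, adjusted p = 0.02).

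**Figure D5:**
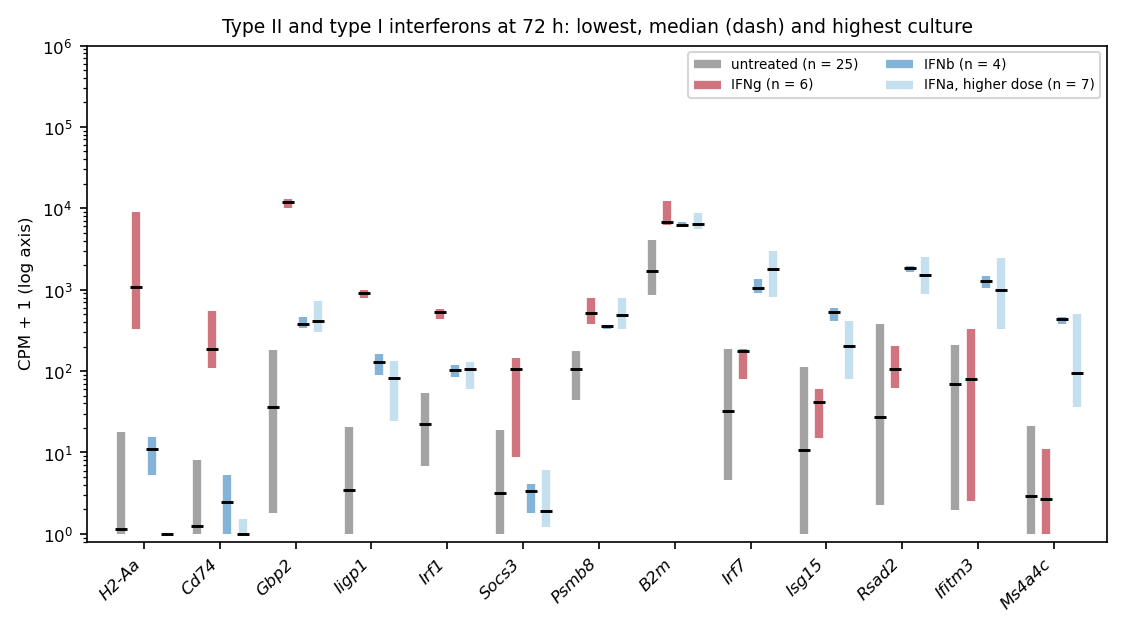
CPM + 1 on a log axis at 72 h for 13 genes, with bars from the lowest to the highest culture and the median as a dash, for untreated cultures (grey), IFNg (red), IFNb (blue) and IFNa at its higher dose (light blue). From left to right, H2-Aa to Socs3 are higher with IFNg than with IFNb, Psmb8 and B2m lie above the untreated range under all 3 interferons, and Irf7 to Ms4a4c are higher with IFNb than with IFNg.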

How the data were processed

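The deposited values were CPM per gene and culture, in 1 table of 45581 genes. The authors amplified RNA with T7 polymerase, sequenced 3′ ends (Quantseq) and quantified them with Salmon 0.7.1 on Ensembl release 81 (GRCm38). The submitters' processing notes also name mm8. The study's methods call the unit TPM, and no length scaling was assumed. Depth was read from the value of 1 read in each library. Whole reads were not recovered, since 74.5% to 80.2% of low values in the IFNg cultures were whole (tolerance 0.1 read), so no count test was used. Of the table's columns 106 were used and 678 were not.

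Genes above 5 CPM in at least 4 of the cultures fitted were tested with limma 3.58.1 (R 4.3.3, trend, log2(CPM + 1), 2-sided). Calls needed a Benjamini-Hochberg adjusted p under 0.05 and a log2 difference of at least 1. The response at 72 h was compared with that at 24 h through an interaction term, and IFNg with IFNb directly. Plate and lot came from the table's header rows. Figures and summaries used Python 3.11.15, pandas 2.3.3 and scipy 1.17.1. On simulated data for the first comparison (10495 genes, 200 changed by 2 on the log2 scale), 179 were recovered with 11 false calls. The simulation drew every culture independently with the mean and spread of the untreated ones, without plates or shallow libraries. Only genes of higher level were changed in it. Its figures therefore do not measure recovery or false calls in the real cultures. Named genes were the 12 rises and 12 falls with the largest differences among called genes without overlap between groups, with the same direction on both plates and with a mean of at least 5 CPM, the 5 largest each way in the other comparisons, and list members with high levels, large changes or a central role. Some genes are not reported here, and the gene lists were counted without them. Members, lists and tests were chosen with earlier results of these data known. Alternatives changed the pseudocount, filter, scaling, minimum change, plate or pool term, test and cultures included. Depth limits the second plate most, where culture 5 had 1.29 M reads.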

Additional observations from a re-analysis of the deposited data

Results flagged for a closer look

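In 16 of 160 sets of 6 IFNg cultures or 4 IFNb cultures tested, 1 culture stood far from the others by Dixon's test, which chance gives in about 1 of 20. IFNg culture 5, the library with the fewest reads, was the low one for Dhrs3 at 5.41 CPM, Gbp8 at 94.3 CPM, Il18bp and Socs3 at 7.73 CPM each, Mx1 at 22.4 CPM, Psme2 at 14.7 CPM, and Hmha1 and Nlrc5 at 0 CPM. Culture 6 stood apart for Cd40 at 0.415 CPM, Fam20c at 0.807 CPM and Tgtp2 at 153 CPM. Culture 4 stood apart for Ifngr2 at 14.3 CPM, Irf8 at 1796 CPM and Usp18 at 0.404 CPM. Culture 1 stood apart for Casp4 at 15.5 CPM and Itpka at 1.41 CPM.

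The response to IFNg differed between 72 h and 24 h, by the interaction test, for 18 named genes. The difference of the responses on the log2(CPM + 1) scale was positive for Il1b at 3.96, Clic5 at 3.45, Gm37515 at 3.19, Adcy4 at 3.17, Cxcl2 at 3.06, Gm14446 at 2.43 and Wars at 1.38. It was negative for Klrk1 at -4.48, Dhrs9 at -4.28, Gbp2b and Ccl2 at -4.07 each, Itpka at -4.03, Gbp9 at -2.19, Arg1 at -2.14, Ccl9 at -1.96, Emp1 at -1.62, Spp1 at -1.60 and Pcna at -1.03. Cell lot and time cannot be told apart in these values.

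Cultures that received IFNg with a further stimulus for 72 h stood outside the comparisons. With TNFa the medians were 511 CPM for H2-Aa, 8422 CPM for Gbp2 and 1759 CPM for Cxcl9. With a low dose of LPS they were 52.7, 7806 and 594 CPM, all above the untreated maximum.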

How the results depend on the processing

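No called difference of a named gene changed sign in an alternative fit. The median difference of 5 of 28 gene lists had another sign on the second plate than on the first, among them cell division (-2.13 and 0.39), inflammatory cytokines (1.61 and -0.65) and ligands that meet T cells (0.56 and -1.03), and centring turned the balance of rises and falls. For IFNg at 72 h against untreated cultures, 302 rises became 478 with each culture centred on its median and 134 within the second plate, and 259 to 322 without 1 IFNg culture. The 724 falls became 471 with no filter on low values, 1107 with only the plates that held both groups and plate in the model, 390 after centring, 1101 within the first plate, 191 within the second and 339 by the exact rank-sum test. They ranged from 388 without culture 5 to 943 without culture 2. For the response at 72 h minus that at 24 h, 64 higher genes became 117 with plate in the model and 31 to 177 without 1 IFNg culture, and 405 lower genes became 153 to 894 (lowest without culture 5 in both). For IFNg against IFNb, 89 higher genes became 143 with plate in the model, 321 on the plate with both groups and 53 to 60 without 1 IFNb culture, and 264 lower genes became 173, 527 and 119 to 126. The single-plate fits test fewer cultures, and the cause of the other changes was not tested. Centring, the separate plates, the fit without untreated culture 10, the fit shared with IFNa and IFNb (358 rises, 832 falls) and the single plate for IFNb were chosen after seeing the data.

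Of the 108 named genes called at 72 h, 58 kept the call in every alternative run that tested them. These included all 12 rises and 10 of the 12 falls, while Emp1 and Hmha1 lost the call within the second plate. Some of the 58 did not pass the filter in every run, such as Adcy4, tested in 14 of 20, and Cxcl9, tested in 19 of 20. A planned fit over all single-stimulus groups at 72 h was not run. No paired analysis was possible because the labels give no replicate numbers. Genes near 5 CPM were limited by depth, above all in culture 5.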

Other observations

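The cultures with IFNg and a second stimulus also differed in Nos2 and Ccl5, neither of which was called with IFNg alone. The median of Nos2 was 307 CPM in 8 cultures with TNFa + IFNg and 1233 CPM in 7 with LPS_lo + IFNg, against 3.20 CPM with IFNg alone. Ccl5 had medians of 13719.9 and 20341 CPM against 395 CPM with IFNg alone and 199.6 CPM in untreated cultures. Doses and wells differed between these groups, and no test was made.

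Gene modules that the study derived from this panel of cultures, IFNg included, are no independent evidence of direction. Of the module BR_blue 40 of 44 tested genes rose with IFNg at 72 h (median 2.61), and of PI_turquoise 34 of 41 did (median 2.53). In BR_turquoise 40 of 141 rose and 1 fell (median 0.90), and against IFNb 59 of its 146 tested genes were lower with IFNg and none higher. Falls were most frequent in TQ_magenta, with 20 of 34 genes, and in TQ_red, with 18 of 40.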
